A study of Rattus norvegicus with 14 samples.

Results

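Ion channels and neurotransmitter receptors are encoded by gene families whose names are shared between members. Sperm DNA regions were assigned to them by the gene name given in the deposited region tables. All names that begin with Kcn, of potassium channels and their accessory subunits, were taken, with those of calcium, sodium, HCN, chloride and TRP channels. Names of glutamate, GABA, serotonin, acetylcholine, dopamine and adrenergic receptors and of the postsynaptic scaffolds Shank and Dlgap were taken as well. The rule found 150 listed regions of 8555 in all. They belong to 55 of 3797 named genes and form 84 separate loci once regions that overlap by at least 1 bp are joined. The gene in the tables is the one with the nearest promoter, so each region given with coordinates below also has its distance from that promoter's start.

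The study measured CpG methylation in sperm of male Wistar rats by reduced representation bisulfite sequencing, which reads restriction fragments rich in CpGs. The ELS-HFD group (3 libraries) was separated from the dam and later fed a high-fat diet, the ELS group (4 libraries) was separated and fed standard chow, and the HFD group (4 libraries) stayed with the dam and was fed the high-fat diet. The control group (3 libraries) stayed with the dam and was fed chow. Separation began on postnatal day 1 and lasted 16 days at 3 h each, all groups went through an elevated plus maze at about postnatal day 57, and diets were split at postnatal day 60. The sources used here do not say how sperm was collected or purified, nor whether the libraries of a group came from separate litters, so p-values measure the spread between these samples.

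Voltage-gated channels open when the membrane potential changes and shape the firing and the repolarisation of nerve and muscle cells, while receptors of the ionotropic kind open when a transmitter binds. Metabotropic receptors signal through G proteins instead, and scaffold proteins hold receptors in place under the postsynaptic membrane. Most members are studied for their work in brain or heart, and in sperm their DNA is a carried genome in which CpG-rich promoters are generally unmethylated and gene bodies are generally methylated.

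Sequences of the CpG-rich starts of 2 member genes are shown because their listed promoter regions were close to unmethylated in nearly all libraries. Over all 17 member promoter regions the median level was 2.49%, and the highest, at Shank2, was 76.3%. RefSeq promoter windows on the rat assembly GRCr8 run from 250 bases before to 50 bases after a gene's start, and 29 of the 55 member genes had one. Kcna3, a voltage-gated channel subunit known from T lymphocytes and neurons, and Chrna4, a subunit of the main nicotinic receptor of the brain, are the member genes with both a window and a listed promoter region within 250 bases of the start, and were chosen after their values were seen. Each CG is in capitals, and each sequence is 300 bases, printed 5′ to 3′ on the strand of the gene.
Kcna3, chr2:197320074-197320373, plus strand: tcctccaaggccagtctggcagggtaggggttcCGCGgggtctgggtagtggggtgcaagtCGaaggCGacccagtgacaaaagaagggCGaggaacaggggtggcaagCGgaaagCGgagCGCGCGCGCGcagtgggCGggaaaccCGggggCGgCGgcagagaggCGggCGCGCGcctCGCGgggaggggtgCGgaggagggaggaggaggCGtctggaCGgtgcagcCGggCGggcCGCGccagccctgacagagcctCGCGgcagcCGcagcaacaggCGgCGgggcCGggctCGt
Chrna4, chr3:188534477-188534776, minus strand: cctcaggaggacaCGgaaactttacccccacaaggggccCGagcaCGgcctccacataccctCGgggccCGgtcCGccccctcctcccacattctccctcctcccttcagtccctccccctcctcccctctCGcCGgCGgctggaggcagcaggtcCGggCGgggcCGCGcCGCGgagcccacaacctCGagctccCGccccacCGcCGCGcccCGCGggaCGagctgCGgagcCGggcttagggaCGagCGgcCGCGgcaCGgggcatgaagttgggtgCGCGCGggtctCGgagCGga
The Kcna3 window holds 36 CGs, and 5.43% of 33469 windows of this length hold at least as many. The Chrna4 window holds 35, reached by 6.13% of windows, against a median of 7 over all windows, of which 94.5% hold at least 1. CG reads the same on both strands, and its count describes these letters only. The methylation tables use the older assembly Rnor_6.0, so where exactly their regions fall within these windows was not established.

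The listed region of Kcna3 (chromosome 2, 209766437 to 209766484, promoter, 12 CpGs, 52 bp from the annotated start) had 0, 0.524, 0.803 and 0.769% in the ELS libraries, against 0.969, 6.34 and 1.67% in the control libraries. All ELS libraries lay below all control libraries, and 1 control library stood well above the other values. Without that library, at 6.34%, the difference was -0.796. The means were 0.524 ± 0.371% in ELS and 2.99 ± 2.92% in control, a difference of -2.47 percentage points (limma adjusted p = 0.172). At Chrna4 (chromosome 3, 176548170 to 176548492, 10 CpGs, 123 bp from the start) methylation was 10.8, 3.33, 0.871 and 0% in the ELS libraries, against 2.73, 0 and 0.909% in the control libraries. There the groups overlapped, and 1 ELS library at 10.8% lay above all others, without which the difference was 0.187. The difference was 2.53 percentage points (limma adjusted p = 0.456). This Chrna4 region is annotated as the promoter of a transcript that the tables pair with no gene.

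Every value below is the methylation level of a region in percent, as deposited for each library, with means ± SD over 3 ELS-HFD, 4 ELS, 4 HFD and 3 control libraries, and coordinates on Rnor_6.0 counted from 1. Read depth is unknown, so SDs over libraries are the only error. In 86 of the 143 regions of member genes described here, leaving out 1 library moved the difference by over 1.5 times, and in 20 it turned the direction. Every listed region holds 10 or more CpGs and has a deposited difference of 2.5 or more percentage points, in either direction, between those same libraries. The caller's own cut-offs are not given in the sources used here. Listing by difference biases p-values and counts of groups that do not overlap towards a difference. The p-values are from limma, fitted on a logit scale to every listed region of the table, and adjusted over the whole table by the Benjamini-Hochberg method. In regions of wide spread the same library was often extreme. Of the member regions in the ELS-HFD against control table, 10 had ELS-HFD libraries spread by at least 15 percentage points. The ELS-HFD library in the second column was lowest in 7 of them and the one in the third column highest in 7, and in 273 other listed regions of that kind the second column was lowest in 188. In ELS against control the ELS library in the second column was lowest in 6 of 7 such member regions and in 157 of 302 other such regions. In HFD against control the HFD library in the first column was lowest in 7 of 11 such member regions and in 113 of 262 others. The part of these libraries in the results was not tested beyond the values without them given below. Listed regions assigned to genes whose imprinting control regions sperm leave unmethylated (Gnas, Grb10, Igf2r, Kcnq1, Zrsr1) had group means between 0.163 and 23.9%. That of Kcnq1 is its promoter, 169 bp from the start, and is itself a member region. For genes whose control regions sperm methylate, group means were 95.6 to 98.3% at Zdbf2 and 13.4 to 18.3% at Dlk1. Whether any of these regions covers an imprinting control region was not established, so they do not test how pure the sperm was.

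Across families, potassium channels had the most members, with 50 regions at 19 of 95 genes that the RefSeq annotation names for that family. Calcium channels had 17 regions at 9 of 26 genes, postsynaptic scaffolds 20 regions at 4 of 10 genes, NMDA receptors 11 regions at 4 of 8 genes, and HCN channels 9 regions at 2 of 4 genes. Nicotinic receptors (8 regions, 4 of 16 genes), kainate receptors (8 regions, 2 of 5 genes), sodium channels (7 regions, 3 of 14 genes), serotonin receptors (6 regions, 2 of 14 genes) and metabotropic glutamate receptors (5 regions, 2 of 8 genes) followed. Muscarinic receptors had 4 regions at 1 of 5 genes, GABA-A receptors 3 regions at 2 of 19 genes, and TRP channels 2 regions at 1 of 24 genes. No region was listed for any of 9 chloride channel, 4 AMPA receptor, 2 GABA-B receptor, 5 dopamine receptor and 9 adrenergic receptor genes. In all, 55 of 277 annotated genes of these families (19.9%) had a listed region, beside 2790 of 23154 protein-coding genes (12.0%). Genes were matched by symbol to protein-coding genes, which found all 55 member genes but only 2790 of the 3797 named genes. The 2 shares are thus not measured alike. Which genes the assay covered is not given in the sources used here, and the shares were not tested.

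Member regions lay mostly inside genes. Exons held 57 regions at 24 genes, introns 40 at 19 genes, intergenic sequence 27 at 12 genes, promoters 17 at 9 genes and transcript ends 9 at 3 genes. Exons made up 38% of member regions and 24.6% of the other listed regions, and intergenic sequence 18.0% and 37.98%. The contexts differed in their level: the median over regions was 2.49% in promoters, 4.47% at transcript ends, 13.6% in intergenic sequence, 26.1% in introns and 43.4% in exons. Of the promoter regions 13 were lower and 4 higher in the first-named group, while exons divided into 30 higher and 27 lower. These counts pool tables that share libraries, and the 17 promoter regions at 9 genes include loci that recur between tables. Among all listed regions, lower was the commoner direction in every table except HFD against control. The direction of all listed promoter regions is not given here, so whether member promoters differ from them was not tested. Distances were long, with 77 regions over 10 kb from the start of the named gene and 35 within 1 kb. In 4 regions the annotated transcript was that of another gene in the tables: both Cacng1 regions lie in exon 31 of 31 of Helz, an RNA helicase gene, and 2 of the Grm4 regions lie in an intron of Ppil1, which encodes a splicing-associated isomerase.

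**Figure D1:**
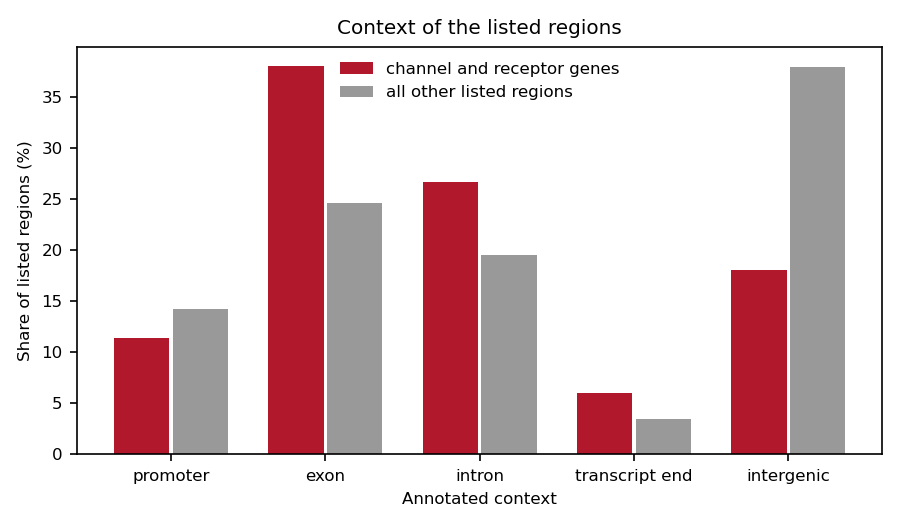
Share of listed regions (y axis, percent) in each annotated context (x axis) for the 150 regions at channel and receptor genes (red bars) and for all 8405 other listed regions (grey bars). Exons hold 38% of the red and 24.6% of the grey regions, and intergenic sequence 18.0% and 37.98%.

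The HFD against control comparison asks what the diet alone went with. It listed 33 member regions, 21 of them higher (63.6%, beside 56.4% of all listed) and 12 lower in HFD. The median difference was 2.61 percentage points over members and 2.45 over all listed regions. Since a listed region has a deposited difference of 2.5 or more, these medians mainly follow which direction is commoner, here and below. By the authors' deposited table none of the 33 had a q-value under 0.05 (0.632% of all 1583 listed regions did) and none passed limma at an adjusted p of 0.05 (0% of all). At an unadjusted limma p under 0.05 there were 11 (22.8% of all listed), 7 higher and 4 lower. The libraries of the groups did not overlap in 12 (22.6% of all), 6 in each direction.

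The ELS against control comparison asks the same of separation alone. It listed 38 member regions, 17 higher (44.7%, beside 39.1% of all) and 21 lower in ELS. Their median difference was -2.53 percentage points beside -2.78 over all. The member median took values of -2.66 to -0.665 when 1 library was left out. By the authors' deposited table none had a q-value under 0.05 (0.919% of all 1849), none passed limma after adjustment (0%), and 10 had an unadjusted limma p under 0.05 (26.9%), of which 8 were lower. In 8 the libraries did not overlap (25.7% of all), 3 higher and 5 lower.

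For both exposures together, ELS-HFD against control listed 29 member regions, 13 higher (44.8%, beside 30.0% of all) and 16 lower. The medians were -3.09 over members and -3.06 over all. The member median took values of -3.01 to 0.206 when 1 library was left out. Again the authors' deposited table held no member with a q-value under 0.05 (0.696% of all 1867) and none passed limma after adjustment (0.107% of all). The unadjusted count was 8 (27.9%), 3 higher and 5 lower, and 10 did not overlap (38.7% of all), 4 higher and 6 lower.

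The comparison of ELS-HFD with HFD, which adds separation to the diet, listed 23 member regions, 6 higher (26.1%, beside 26.1% of all) and 17 lower. Of all 1653 listed regions 1222 were lower. The medians were -3.16 over members and -2.96 over all. The authors' deposited table gave none a q-value under 0.05 (0.423% of all 1653), limma passed none after adjustment (0%), 8 had an unadjusted limma p under 0.05 (25.2%), and 6 did not overlap (23.9%), all of them lower. ELS-HFD against ELS, which adds the diet to separation, listed 27 member regions, 14 higher (51.9%, beside 38.1% of all) and 13 lower. The medians were 2.97 over members and -2.75 over all. With 1 library left out the member median lay between -2.31 and 3.06, and within 10 kb of the start it was -3.39. The authors' deposited table gave 1 member, near Grin3b, a q-value under 0.05 (0.686% of all 1603). None passed limma after adjustment (0%), 8 had an unadjusted limma p under 0.05 (27.3%), and 7 did not overlap (24.1%), 2 higher and 5 lower. Comparisons that share a group share its libraries, so regions that recur between tables are not independent.

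**Figure D2:**
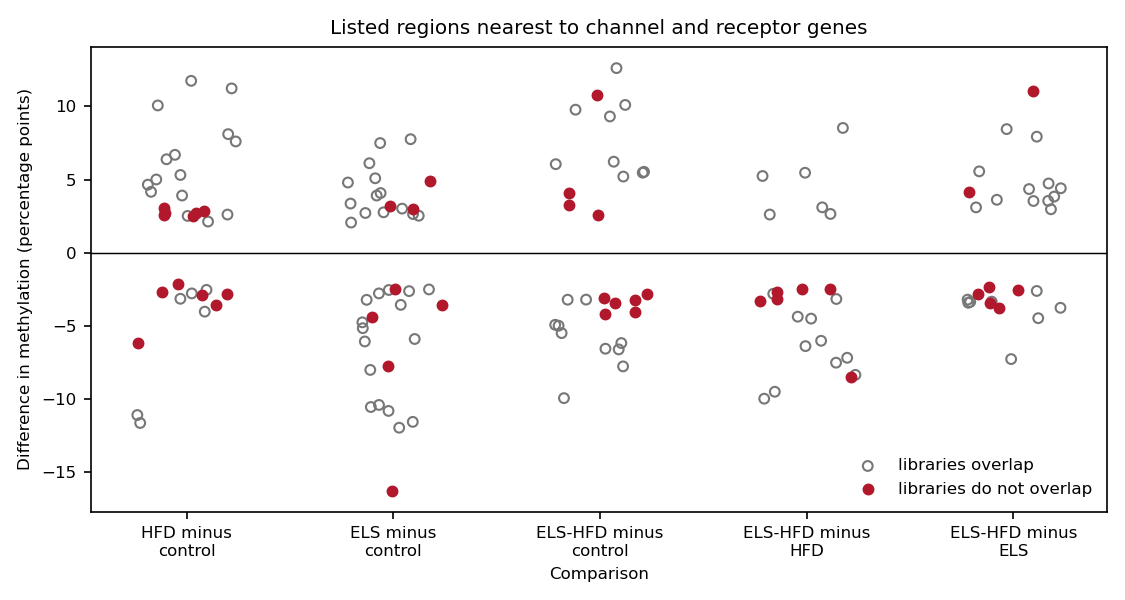
Difference in mean methylation (y axis, percentage points, first-named group minus second) of each of the 150 member regions in the 5 comparisons (x axis; points are spread sideways for legibility). Filled red points are regions whose libraries do not overlap between groups and open grey points those that overlap. The lowest point is the Kcng1 region in exon 3 at -16.3 in ELS minus control. All 6 red points of ELS-HFD minus HFD lie below 0, in a comparison where 1222 of all 1653 listed regions were lower.

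Potassium channel members divide into voltage-gated pore subunits, silent subunits that act only in complexes with others, accessory subunits, inward rectifiers and background channels. Kcng1, a silent subunit that assembles with pore-forming partners, had the most listed regions of any member gene, 9 at 4 loci in 4 of the 5 tables. In exon 3 of 3 (chromosome 3, 165020554 to 165020682, 19089 bp from the start) methylation was 36.4, 36.4, 42.3 and 43.6% in the ELS libraries, against 54.9, 50.3 and 62.6% in the control libraries. Every ELS library lay below every control library. The means were 39.7 ± 3.80% in ELS and 55.9 ± 6.20% in control, a difference of -16.3 percentage points (limma adjusted p = 0.126), which was the largest difference of any member in absolute value. With any library left out it lay between -19.1 and -12.9 percentage points.

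The same exon 3 locus was listed in ELS-HFD against ELS over a slightly different interval (chromosome 3, 165020483 to 165020669, 19131 bp from the start), with 52.5, 51.7 and 50.5% in the ELS-HFD libraries, against 36.8, 39.9, 43.2 and 42.2% in the ELS libraries. Here all ELS-HFD libraries lay above all ELS libraries. The means of 51.6 ± 1.02% in ELS-HFD and 40.5 ± 2.83% in ELS gave a difference of 11.0 percentage points (limma adjusted p = 0.181). Against control, ELS-HFD had 49.4, 47.2 and 47.8% and control 53.5, 47.9 and 59.5%. These groups overlapped, and their difference of -5.49 percentage points (limma adjusted p = 0.423) was smaller than that of ELS with control, though both differences share control libraries and their gap was not tested at this locus. It lay between -8.36 and -2.55 with 1 library left out. The exon 3 difference between ELS and ELS-HFD rests on the ELS libraries that also enter the ELS comparison with control.

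In exon 2 of Kcng1 (chromosome 3, 165027229 to 165027301, 12442 bp from the start) HFD libraries had 43.3, 30.3, 34.9 and 50.6% and control libraries 52.1, 56.6 and 44.0%, a difference of -11.1. Over nearly the same bases ELS had 36.2, 43.7, 33.2 and 39.7% and control 49.3, 54.1 and 42.3% (-10.4 percentage points). In the ELS-HFD table the values were 40.0, 37.2 and 30.6% in ELS-HFD and 43.0, 47.3 and 37.3% in control (-6.56 percentage points). The control libraries are common to all 3 comparisons, all 3 pairs of groups overlapped, and the limma adjusted p was 0.279 for HFD, 0.210 for ELS and 0.365 for ELS-HFD. The ELS-HFD difference lay between -9.17 and -3.91 with 1 library left out. A second exon 3 stretch (chromosome 3, 165021114 to 165021214, 18543 bp from the start) had means of 11.6 ± 2.11% in ELS-HFD and 7.79 ± 2.57% in ELS, and intron 1 (chromosome 3, 165029381 to 165029604, 10215 bp from the start) had 80.1 ± 5.07% in ELS and 86.0 ± 5.56% in control, a difference that lay between -9.06 and -3.82 with 1 library left out. Intron 1 was also listed in ELS-HFD against ELS, at 86.2 ± 0.587% in ELS-HFD and 82.6 ± 5.48% in ELS (between 1.82 and 6.16 with 1 left out). The gene thus held lowly, partly and highly methylated stretches.

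**Figure D3:**
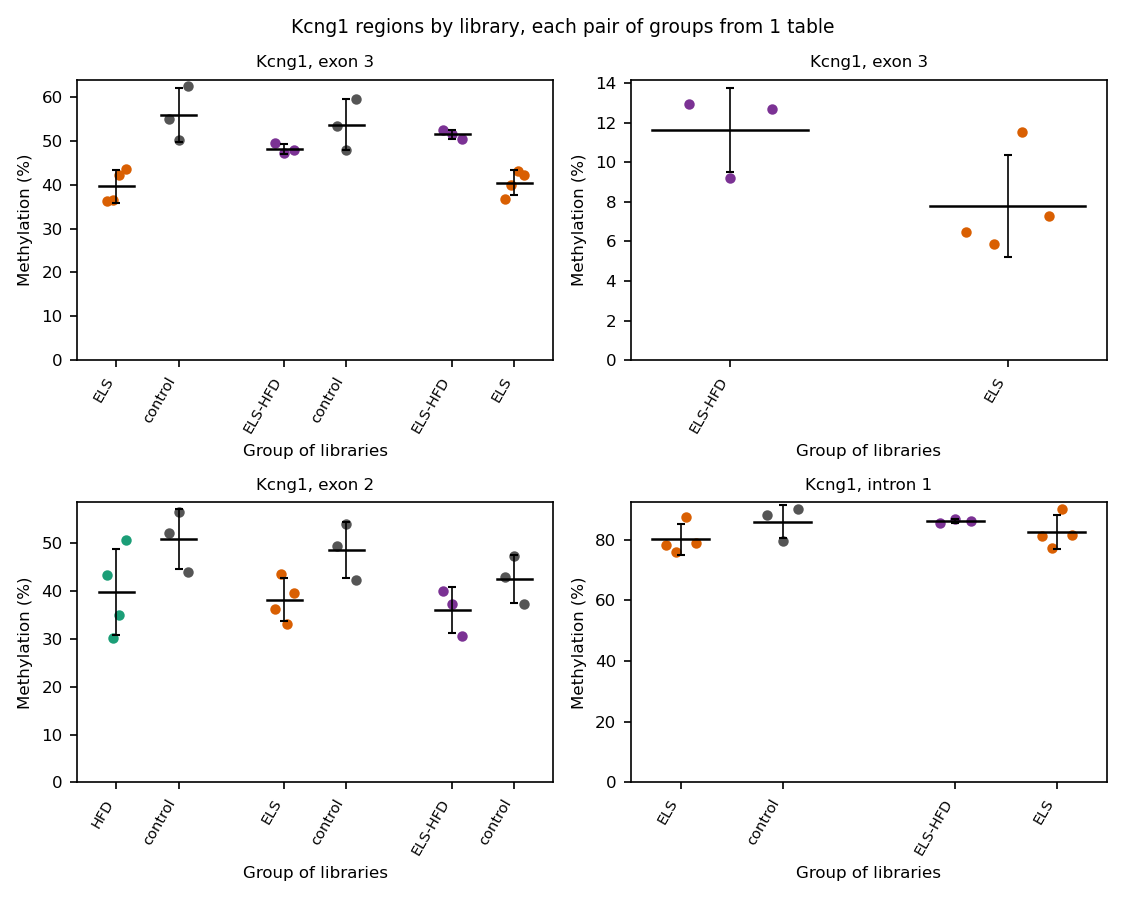
Methylation (y axes, percent, from 0) of Kcng1 regions in each library (points), with group means (horizontal lines) and SDs (error bars), 1 panel per locus and 1 pair of groups per table along the x axes. In the upper left panel the 4 ELS points lie below the 3 control points and, in the table at the right, below the 3 ELS-HFD points.

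Kcng4, another silent subunit, was listed in the HFD table, in exon 3 of 3 (chromosome 19, 52273078 to 52273222, 9727 bp from the start). Its values were 3.63, 6.72, 3.98 and 7.61% in the HFD libraries, against 9.11, 16.9 and 9.02% in the control libraries. All HFD libraries lay below all control libraries, with means of 5.48 ± 1.98% in HFD and 11.7 ± 4.50% in control and a difference of -6.18 percentage points (limma adjusted p = 0.187). Without the control library at 16.9% the difference was -3.58. Kcnf1, also a silent subunit, is a gene of 1 exon, and 4 tables listed the same stretch, 1904 bp from its start in the ELS table. In the ELS table (chromosome 6, 42471787 to 42471881) it had 43.7, 46.5, 53.6 and 46.8% in the ELS libraries, against 43.9, 35.1 and 41.5% in the control libraries. The ELS values reached above control but overlapped it, with a difference of 7.5 (limma adjusted p = 0.279), which was 4.97 without the control library at 35.1%. The wider interval (chromosome 6, 42471741 to 42471881, 1927 bp from the start) gave 47.5, 37.9 and 52.5% in ELS-HFD and 40.3, 32.0 and 36.4% in control, a difference of 9.78, which was 6.51 without the ELS-HFD library at 52.5%. For HFD against control it was 4.16, and without the HFD library at 58.4% it was -0.128. There the control libraries had 45.3, 36.7 and 42.2% at the same coordinates, so the deposited values differed between tables. ELS-HFD minus HFD was 5.25, and between 1.98 and 9.76 with any library left out. The HFD mean was 45.6% in the comparison with control and 40.7% in that with ELS-HFD. None of the 4 Kcnf1 regions had an unadjusted limma p under 0.05.

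Among pore-forming subunits, starts of 4 genes were chosen for their lack of overlap in at least 1 comparison after their values were seen. Kcna1, the channel subunit mutated in human episodic ataxia, is a gene of 1 exon, and its listed stretch (chromosome 4, 159192287 to 159192354, 206 bp from the start) had 0.652, 0.231 and 0.463% in the ELS-HFD libraries, against 2.06, 3.54 and 4.30% in the control libraries. All ELS-HFD libraries were below 1% and all control libraries above 2%, which gave a difference of -2.85 percentage points (limma adjusted p = 0.103). Nearly the same bases had means of 1.07 ± 0.397% in HFD and 3.23 ± 1.12% in control, again without overlap (a difference of -2.16 percentage points (limma adjusted p = 0.159)). The control libraries are the same in both.

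Kcnh2 encodes the channel of the rapid delayed rectifier current that repolarises heart muscle. Its promoter region (chromosome 4, 7355028 to 7355065, 528 bp from the start) had 0.793, 0.884 and 0.526% in the ELS-HFD libraries, against 3.07, 3.99, 2.29 and 4.40% in the HFD libraries. Over a few more bases HFD libraries had 3.87, 3.27, 1.52 and 4.43% and control libraries 0.616, 1.01 and 0.593%. HFD libraries were thus above both the ELS-HFD and the control libraries without overlap, by means of 0.734 ± 0.186% in ELS-HFD and 3.44 ± 0.946% in HFD in one table and of 3.27 ± 1.26% in HFD and 0.740 ± 0.234% in control in the other. The difference between ELS-HFD and HFD was -2.70 (limma adjusted p = 0.156), and that between HFD and control was 2.53 (limma adjusted p = 0.146). Both rest on the same HFD libraries. Exon 4 of 15 was nearly fully methylated, at 95.8 ± 2.97% in HFD and 98.5 ± 0.546% in control, and a second promoter had 6.85 ± 1.32% in ELS-HFD and 10.1 ± 5.31% in control. At that promoter the groups overlapped, and the difference of -3.21 lay between -6.25 and -1.36 with 1 library left out.

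Kcnk15, a background channel gene of the acid-sensitive group, showed the same order of HFD against both other groups near its start (chromosome 3, 160232138 to 160232165, exon 1 of 2, 237 bp from the start). HFD libraries had 1.19, 4.92, 5.19 and 0.714% and control libraries 0.435, 0 and 0.385%, without overlap. In the table of ELS-HFD against HFD they had 0.589, 0.313 and 0.284% in the ELS-HFD libraries, against 1.08, 4.48, 5.23 and 0.649% in the HFD libraries. These groups did not overlap either, although 2 HFD libraries lay within 1 percentage point of the ELS-HFD libraries. The differences were 2.73 for HFD minus control (limma adjusted p = 0.182) and -2.46 for ELS-HFD minus HFD (limma adjusted p = 0.189), from the same HFD libraries. Kcnk9, a related acid-sensitive background channel, was lower in its promoter (chromosome 7, 113938203 to 113938360, 340 bp from the start), with 0.455, 0.244 and 0.571% in the ELS-HFD libraries, against 1.11, 9.60 and 2.72% in the control libraries. Its control libraries ranged widely, and the means were 0.423 ± 0.166% in ELS-HFD and 4.48 ± 4.51% in control and, over a shorter interval, 0.134 ± 0.267% in ELS and 3.70 ± 4.16% in control. ELS-HFD and control did not overlap, but ELS and control did, with an ELS library at 0.535% above the control library at 0.478%. Without the highest control library the differences were -1.49 for ELS-HFD and -1.22 for ELS. Kcnab3, a cytoplasmic beta subunit of voltage-gated channels chosen in the same way, had 0, 0.521, 0 and 0.397% in the HFD libraries, against 1.30, 4.62 and 3.21% in the control libraries at chromosome 10, 55927307 to 55927445, 153 bp from the start and annotated as the end of a transcript that the tables pair with no gene. No HFD library reached the control range (a difference of -2.81 percentage points (limma adjusted p = 0.126)).

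Kcne2 is a small accessory subunit that changes the gating of several pore subunits. Its intron 1 region (chromosome 11, 32440485 to 32440771, 391 bp from the start) was listed against control in all 3 tables over identical bases. HFD libraries had 17.2, 34.4, 33.5 and 44.0%, ELS libraries 35.7, 17.2, 27.0 and 53.6% and ELS-HFD libraries 32.2, 19.1 and 49.6%. The control libraries had 86.5, 24.2 and 21.0%, so 1 of them lay far above every other library and the other 2 lay within the ranges of the other groups. The differences from control were -11.6 for HFD, -10.5 for ELS and -9.94 for ELS-HFD. Without that control library they were 9.67, 10.8 and 11.6, which turned the direction in each.

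Kcnk10, a background channel opened by membrane stretch, was listed in 4 tables within 1 stretch of intron 1, 43547 bp from its start in the HFD table. In HFD against control (chromosome 6, 122502317 to 122502388) it had 19.1, 65.9, 53.2 and 34.1% in the HFD libraries, against 33.7, 15.3 and 45.1% in the control libraries. In ELS against control (chromosome 6, 122502267 to 122502318, 43607 bp from the start) the values were 21.9, 10.05, 38.4 and 16.2% in the ELS libraries, against 12.8, 6.08 and 22.8% in the control libraries. Libraries of each group spread widely and overlapped. The differences were 11.8 for HFD, 7.76 for ELS and 5.53 for ELS-HFD against control, and -3.34 for ELS-HFD against ELS, with limma adjusted p between 0.345 and 0.801. With 1 library left out the differences from control lay between 3.72 and 19.7 for HFD, between 2.19 and 12.2 for ELS and between -0.185 and 11.8 for ELS-HFD, and ELS-HFD minus ELS lay between -8.07 and 3.62. The lowest of these were without the control library at 15.3% for HFD, the ELS library at 38.4% for ELS and the control library at 10.9% for ELS-HFD, and ELS-HFD minus ELS was 3.62 without the ELS library at 51.4%. Kcnk1, a weakly rectifying background channel outside the rule for named genes and added after its values were seen, had 27.5 ± 4.10% in ELS and 32.6 ± 2.68% in control in an intron and 7.52 ± 1.59% in ELS-HFD and 13.9 ± 6.66% in HFD in exon 2 of 4, where the difference was -3.52 without the HFD library at 22.5%.

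**Figure D4:**
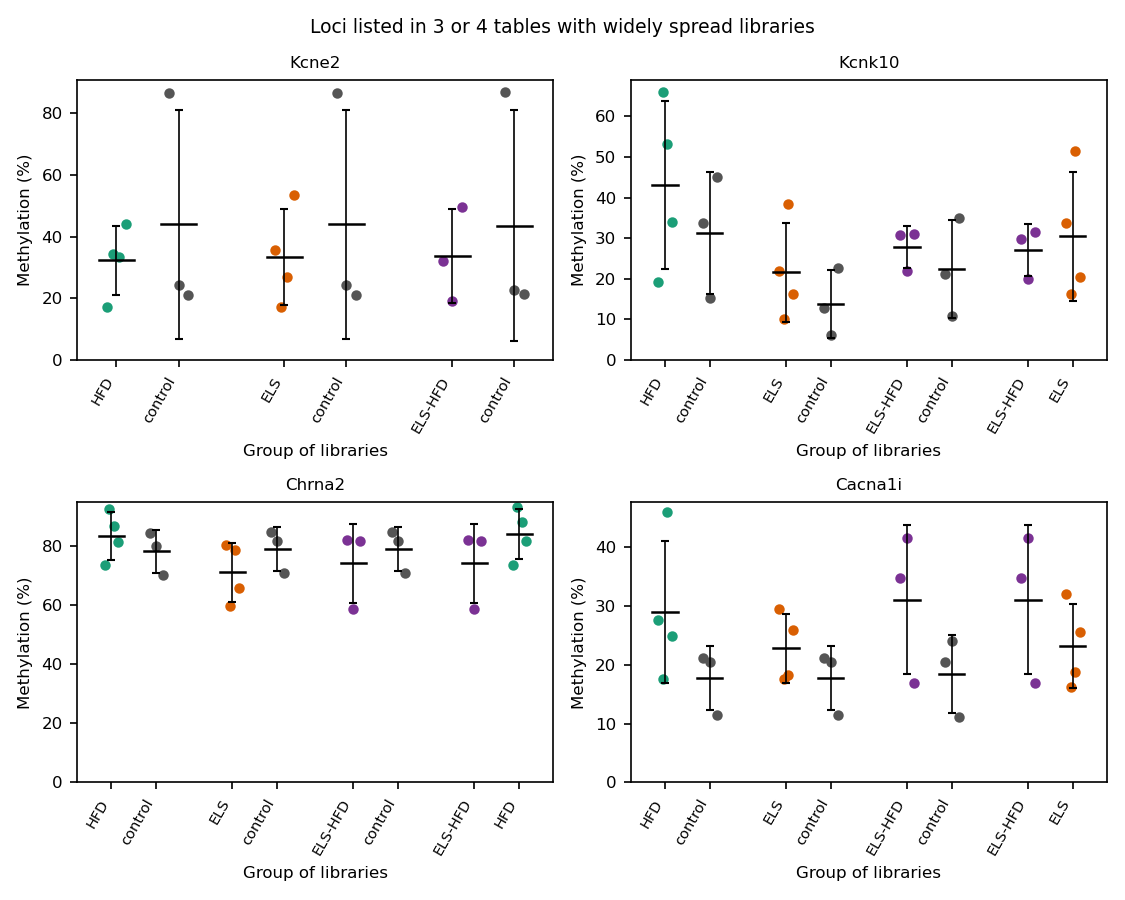
Methylation (y axes, percent, from 0) of 4 loci listed in 3 or 4 tables whose libraries spread widely, with 1 point per library, group means (horizontal lines) and SDs (error bars) and 1 pair of groups per table along the x axes. In the Kcne2 panel 1 control library lies near 86.5% in each table and the other 2 near 24.2 and 21.0%.

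Among inward rectifiers, Kcnj4, which sets the resting potential of forebrain neurons, was listed in exon 2 of 2. It had 76.7, 67.1 and 84.5% in the ELS-HFD libraries, against 72.1, 71.3 and 54.7% in the control libraries at chromosome 7, 120719039 to 120719114, 25526 bp from the start. The ELS-HFD mean was higher by 10.1 percentage points with overlapping libraries (limma adjusted p = 0.285). HFD minus control was 6.70 and ELS-HFD minus ELS 4.74, also with overlap. With 1 library left out the 3 differences lay within 4.43 to 14.6, 1.87 to 10.2 and 1.14 to 8.13. Kcnj16, whose product pairs with another inward rectifier in kidney and glia, was the nearest gene of 3 intergenic loci. The farthest (chromosome 10, 99273307 to 99273684, 114635 bp away) had 24.8, 21.1, 28.1 and 22.4% in the ELS libraries, against 20.6, 18.8 and 18.2% in the control libraries. No ELS library reached the control range, and the difference was 4.88 (limma adjusted p = 0.288). The HFD libraries at the same bases had 20.1, 27.9, 17.9 and 31.0%, overlapping control, and without the one at 31.0% HFD minus control was 2.74. A second locus (chromosome 10, 99317438 to 99317517, 70653 bp from the start) had 9.72, 7.57 and 5.88% in the ELS-HFD libraries, against 2.62, 2.92 and 5.43% in the control libraries, without overlap (a difference of 4.07 percentage points (limma adjusted p = 0.158)). The nearest (chromosome 10, 99357445 to 99357829, 30493 bp away) had 5.81 ± 2.04% in ELS and 2.79 ± 0.496% in control, and over a shorter interval 2.98 ± 1.88% in ELS-HFD and 6.18 ± 2.14% in ELS.

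Kcnn3, a calcium-activated channel of small conductance that follows the action potential with a slow hyperpolarisation, was the nearest gene of an intergenic stretch. In ELS-HFD against HFD (chromosome 2, 188835589 to 188835715, 8421 bp from the start) it had 5.24, 7.31 and 10.8% in the ELS-HFD libraries, against 18.6, 17.6, 15.6 and 13.2% in the HFD libraries. Every ELS-HFD library lay below every HFD library, and the means were 7.77 ± 2.79% in ELS-HFD and 16.2 ± 2.38% in HFD. The test gave a difference of -8.47 percentage points (limma adjusted p = 0.159), and with any library left out the difference lay between -9.96 and -7.20. An overlapping interval had 21.4 ± 5.15% in HFD and 17.5 ± 4.52% in control and a neighbouring one 33.7 ± 3.11% in ELS and 38.5 ± 2.90% in control. The groups overlapped in both. HFD minus control was 3.91, and 1.31 without the control library at 12.3%. The remaining potassium channel genes, added after their values were seen, were Kcna5 in exon 1, at 2.27 ± 1.43% in ELS-HFD and 5.69 ± 3.97% in ELS, and Kcng3 in intergenic sequence, at 89.2 ± 3.06% in HFD and 92.3 ± 1.23% in control. Kcnq1, the pore subunit of the slow cardiac current, had 1.40 ± 0.660% in ELS and 4.02 ± 2.33% in control in its promoter, and only the lowest control library reached into the ELS range.

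Calcium channel members include the pore subunits of low-voltage-activated channels (Cacna1g, Cacna1h, Cacna1i), which support rhythmic bursting in thalamus. Cacna1i was listed in 4 tables at the same stretch of an intron (chromosome 7, 121589778 to 121589890, intron 10 of 36, 68047 bp from the start). ELS-HFD libraries had 34.8, 41.5 and 17.0% and control libraries 20.4, 24.0 and 11.1%. Over a shorter interval HFD libraries had 27.6, 17.6, 46.0 and 24.8%, ELS libraries 29.6, 17.5, 18.2 and 26.0% and control libraries 21.2, 20.6 and 11.5%. All 3 exposed groups had higher means than the shared control libraries but overlapped them. The differences were 12.6 for ELS-HFD, 11.2 for HFD and 5.09 for ELS (limma adjusted p = 0.255, 0.272 and 0.354). ELS-HFD minus ELS was 7.94. Without the ELS-HFD library at 41.5% the difference from control was 7.42 and that from ELS 2.73, and without the ELS-HFD library at 17.0% they were 19.7 and 15.01. For HFD it was 5.58 without the library at 46.0%. For ELS it was 2.84 without the ELS library at 29.6% and 1.95 without the control library at 11.5%.

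A second Cacna1i locus in exon 17 of 39 (chromosome 7, 121595301 to 121595372, 73549 bp from the start) went the other way in ELS. It had 18.2, 13.0, 19.2 and 19.1% in the ELS libraries, against 26.1, 23.1 and 26.2% in the control libraries, without overlap. The means were 17.4 ± 2.91% in ELS and 25.1 ± 1.74% in control (a difference of -7.77 percentage points (limma adjusted p = 0.182)). Cacna1g was listed in intron 5 of 38 (chromosome 10, 82187128 to 82187227, 10343 bp from the start), with 45.5, 37.5 and 44.1% in the ELS-HFD libraries, against 32.8, 28.3, 29.6 and 45.0% in the ELS libraries. The ELS-HFD values lay above all but 1 ELS library. The same ELS-HFD libraries stood against 34.0, 38.2 and 36.7% in control, with differences of 8.45 from ELS and 6.06 from control (limma adjusted p = 0.298 and 0.368). Cacna1h, added after its values were seen, was near 0 in its promoter, at 3.81 ± 3.36% in HFD and 1.29 ± 0.778% in control. These groups overlapped, and their difference of 2.52 was 1.38 without the HFD library at 7.23%.

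Cacng1 encodes the gamma subunit of the skeletal muscle channel, though the listed bases lie in an exon of Helz, 27716 bp away (chromosome 10, 95906551 to 95906707). ELS libraries had 34.7, 21.5, 34.3 and 34.6% and control libraries 28.8, 26.2 and 20.5%. Of the ELS libraries 3 lay together and 1 stood apart, and the groups overlapped by that library. The difference was 6.12 with all libraries (limma adjusted p = 0.345), 9.39 without the ELS library at 21.5% and 3.78 without the control library at 20.5%. HFD minus control over fewer of these bases was 4.65, and 0.587 without the HFD library at 45.6%.

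Cacng4 and Cacng5 encode relatives of the gamma subunit that attach to AMPA receptors, and were added after their values were seen. An intergenic stretch 4782 bp from Cacng4 (chromosome 10, 96020130 to 96020433) was highly methylated, at 92.0, 93.5, 94.1 and 88.7% in the ELS libraries, against 97.6, 95.4 and 96.4% in the control libraries. Within it (chromosome 10, 96020233 to 96020305, 4770 bp from the start) the values were 96.6, 96.2 and 94.8% in the ELS-HFD libraries, against 89.8, 90.7, 93.2 and 92.9% in the ELS libraries. ELS libraries were the lower ones in both, without overlap, by -4.43 for ELS minus control (limma adjusted p = 0.129) and with ELS-HFD minus ELS at 4.17 (limma adjusted p = 0.124), from the same ELS libraries. Near Cacng5 the means were 95.7 ± 1.66% in ELS and 98.3 ± 1.05% in control. Other calcium channel genes, likewise added, were Cacna1b, the pore subunit of presynaptic channels, at 4.57 ± 1.77% in HFD and 1.99 ± 0.195% in control in exon 20 of 47 without overlap, and the auxiliary subunit Cacna2d3, at 17.1 ± 1.08% in ELS-HFD and 12.7 ± 3.00% in ELS in intergenic sequence. At the promoter of the auxiliary subunit Cacnb3 the control mean rested on 1 library: it had 1.58, 0.702, 0.821 and 0% in the ELS libraries, against 10.7, 0.957 and 0.339% in the control libraries, and 1.25, 0.899 and 0.513% in the ELS-HFD libraries, against 10.9, 1.10 and 0.261% in the control libraries over nearly the same bases.

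Sodium channels carry the upstroke of the action potential. Scn2b, an auxiliary beta subunit with an immunoglobulin-like domain, was the nearest gene of an intergenic stretch (chromosome 8, 49416921 to 49417157, 1926 bp away) with 8.14, 5.59 and 7.40% in the ELS-HFD libraries, against 10.4, 9.65, 10.9 and 12.2% in the ELS libraries. In the table against HFD a shorter interval had 9.47, 6.39 and 9.53% in the ELS-HFD libraries, against 13.6, 11.3, 10.7 and 10.8% in the HFD libraries. ELS-HFD libraries lay below all libraries of either group, with a difference of -3.75 percentage points (limma adjusted p = 0.198) from ELS and a difference of -3.14 percentage points (limma adjusted p = 0.297) from HFD. Scn2a, the sodium channel of axon initial segments, was added after its values were seen and had 2.59, 0.858 and 1.22% in the ELS-HFD libraries, against 3.49, 3.06, 4.08 and 5.86% in the ELS libraries in an intron (a difference of -2.57 percentage points (limma adjusted p = 0.122)).

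HCN channels carry the pacemaker current of heart and brain. Hcn2 was listed in 4 tables within exon 3 of 9, at 2 loci. In HFD against control the first (chromosome 7, 12862127 to 12862173, 12065 bp from the start) had 45.3, 73.3, 83.2 and 45.6% in the HFD libraries, against 50.8, 56.3 and 59.3% in the control libraries. The HFD libraries formed a low and a high pair, below and above the control libraries. The second (chromosome 7, 12862248 to 12862339, 11922 bp from the start) had 32.2, 62.7, 70.0 and 35.4% in the HFD libraries, against 46.6, 29.3 and 44.2% in the control libraries, with the same HFD libraries low and high. The differences of 6.39 and 10.1 were smaller than that spread. With 1 library left out the first lay between -0.732 and 11.9 and the second between 3.43 and 16.0, lowest without the HFD library at 83.2% and the same library at 70.0%. ELS-HFD minus HFD was -7.18 and -6.02 at overlapping intervals, ELS-HFD minus ELS 3.54 and ELS-HFD minus control 5.21. With 1 library left out each of these 4 took values on both sides of 0: from -17.0 to 0.0417, from -13.4 to 0.493, from -4.98 to 11.5 and from -1.12 to 9.29.

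Exon 2 of Hcn2 was nearly unmethylated instead (chromosome 7, 12869579 to 12869652, 4600 bp from the start), with 4.51, 2.19 and 1.48% in the ELS-HFD libraries, against 0, 0 and 0.490% in the control libraries. No ELS-HFD library reached the control range (a difference of 2.56 percentage points (limma adjusted p = 0.112)), and without the one at 4.51% the difference was 1.67. Hcn4, the main pacemaker subunit of the sinoatrial node, had 5.03, 3.95 and 1.58% in the ELS-HFD libraries, against 0.334, 2.5, 0.641 and 0% in the HFD libraries in its last exon (chromosome 8, 63636399 to 63636499, 35786 bp from the start). The groups overlapped by 1 library each, with a difference of 2.65 percentage points (limma adjusted p = 0.176). In intron 2 of 7 the means were 7.42 ± 3.35% in ELS and 4.78 ± 1.72% in control, with a difference between 1.37 and 3.90 when 1 library was left out. Trpv3, a heat-activated TRP channel of skin, had 9.44, 6.13, 7.90 and 10.2% in the ELS libraries, against 5.76, 5.37 and 4.52% in the control libraries in intron 7 of 17 (chromosome 10, 59844918 to 59845000, 13718 bp from the start). All ELS libraries lay above all control libraries by a mean of 3.21 (limma adjusted p = 0.193). HFD libraries at the same bases had 5.38, 8.06, 4.53 and 13.3% and overlapped the same control libraries, and without the one at 13.3% HFD minus control was 0.775.

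NMDA receptor members were 4 subunit genes of this glutamate-gated, calcium-permeable channel. Grin3b encodes a subunit that binds glycine rather than glutamate and lowers calcium flow through the channel. The first of its 2 loci (chromosome 7, 12770985 to 12771055, 16 CpGs, at the end of a transcript that the tables pair with no gene, 6027 bp from the Grin3b start) is the member with a q-value under 0.05. Its libraries had 2.12, 1.25 and 3.33% in the ELS-HFD libraries, against 10.1, 1.10, 7.63 and 8.03% in the ELS libraries. Of the ELS libraries 3 lay above all ELS-HFD libraries and the other, at 1.10%, below all of them. The means were 2.23 ± 1.04% in ELS-HFD and 6.71 ± 3.88% in ELS. The authors' deposited table gave a q-value of 0.0434 and a difference of -4.75 percentage points. The library-based difference was -4.47 (limma adjusted p = 0.220). The caller's test takes CpGs as observations and limma takes libraries. ELS against control was listed for the same bases, with the same ELS libraries and 2.44, 2.95 and 3.00% in control, a difference of 3.91 (limma adjusted p = 0.288). With any library left out ELS-HFD minus ELS lay between -6.34 and -3.36.

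The second Grin3b locus, at the end of a Grin3b transcript, was lower in both groups on high-fat diet. ELS-HFD against control (chromosome 7, 12771062 to 12771367, 25 CpGs, 6221 bp from the start) had 2.35, 0.917 and 1.53% in the ELS-HFD libraries, against 3.99, 3.62 and 6.87% in the control libraries. HFD against control (chromosome 7, 12771072 to 12771352, 6219 bp from the start) had 0.588, 2.81, 0.357 and 1.27% in the HFD libraries, against 3.11, 3.19 and 8.12% in the control libraries. Neither pair of groups overlapped, and the control libraries are the same in both. The differences were -3.23 (limma adjusted p = 0.139) and -3.55 (limma adjusted p = 0.166). Without the control library at 8.12% the HFD difference was -1.89. Its far end (chromosome 7, 12771348 to 12771402, 6382 bp from the start) was listed in ELS-HFD against ELS, with 1.65, 1.2 and 1.10% in the ELS-HFD libraries, against 3.83, 2.5, 5.44 and 4.70% in the ELS libraries. All ELS-HFD libraries lay below all ELS libraries (a difference of -2.80 percentage points (limma adjusted p = 0.104)).

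**Figure D5:**
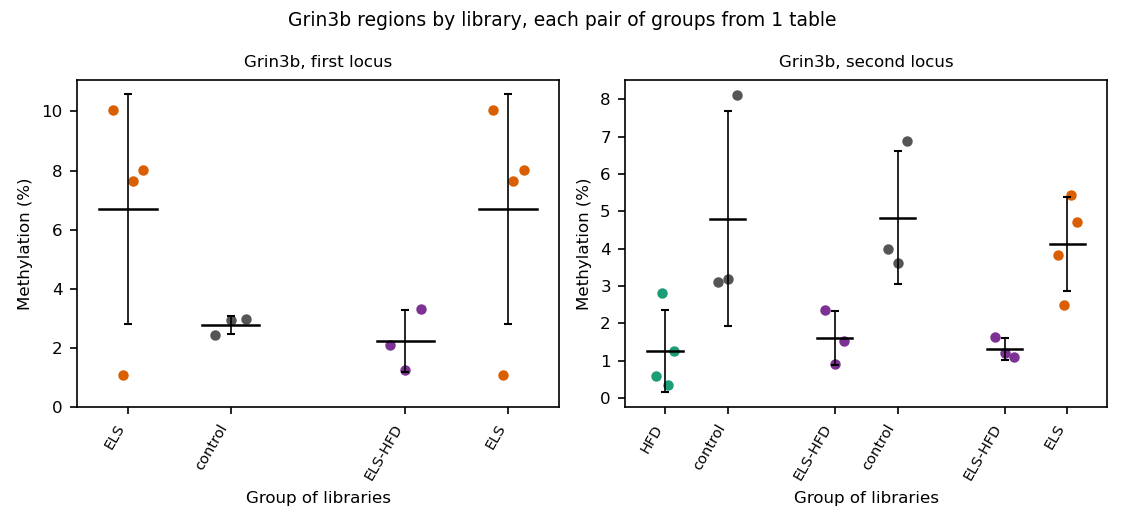
Methylation (y axes, percent) of both Grin3b loci (1 panel each) in each library (points), with group means (horizontal lines) and SDs (error bars) and 1 pair of groups per table along the x axes. At the first locus 3 ELS points lie above and 1 below the ELS-HFD points, and at the second the ELS-HFD and HFD points lie below those of the control and ELS libraries they are paired with.

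Grin2d, an NMDA subunit of early development and of interneurons, had 28.8, 22.5 and 21.6% in the ELS-HFD libraries, against 29.9, 28.8, 33.8 and 34.0% in the ELS libraries in exon 3 of 13 (chromosome 1, 101848745 to 101848837, 4264 bp from the start). The ranges met only at 28.8%, with a difference of -7.27 percentage points (limma adjusted p = 0.258). Within that region ELS minus control was 4.08. The adult subunits Grin2a and Grin2c were added after their values were seen. The intergenic Grin2a region (chromosome 10, 5857558 to 5857659, 72690 bp from the start) had 15.4, 8.71, 12.8 and 5.33% in ELS, 14.0, 12.0 and 9.07% in ELS-HFD and 18.3, 19 and 12.5% in control. Both means lay below that of the shared control libraries with overlap, by -6.07 and -4.93 (limma adjusted p = 0.222 and 0.277). In exon 5 of 15 of Grin2c the means were 3.47 ± 0.818% in ELS-HFD and 6.83 ± 2.26% in ELS and, over a shorter interval, 3.39 ± 1.43% in ELS-HFD and 7.90 ± 5.23% in HFD.

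Kainate receptors are glutamate-gated channels that modulate release on the presynaptic side and excitability on the other. Grik3 was listed at 3 loci. In intron 1 of 15 (chromosome 5, 143613904 to 143614048, 113535 bp from the start), it had 73.8, 51.7, 78.8 and 68.4% in the ELS libraries, against 81.6, 73.1 and 84.4% in the control libraries. The ELS libraries overlapped control, and the difference of -11.6 (limma adjusted p = 0.229) was -6.07 without the ELS library at 51.7%. Over a longer interval ELS-HFD libraries had 70.5, 69.9 and 75.0% and HFD libraries 58.3, 77.0, 87.9 and 80.2%, against 80.7, 71.8 and 82.7% in control. The differences there were -6.61 for ELS-HFD and -2.54 for HFD, and with 1 library left out they lay between -9.93 and -4.44 and between -6.54 and 3.32. The HFD difference turned without the HFD library at 58.3%. Another stretch of intron 1 (chromosome 5, 143606701 to 143606976, 106397 bp from the start) had 7.64, 4.23, 6.09 and 4.99% in the HFD libraries, against 2.01, 3.86 and 2.22% in the control libraries, without overlap (a difference of 3.04 percentage points (limma adjusted p = 0.182)). The Grik3 promoter had 0.720 ± 0.180% in ELS-HFD and 3.53 ± 3.17% in HFD, a difference that was -1.37 without the HFD library at 7.85%.

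Grik4, another kainate subunit, was added after its values were seen, since all 3 of its regions were without overlap. They lie in intergenic sequence, 95964 bp from its start in the HFD table. HFD libraries had 4.50, 6.48, 4.01 and 5.50% and control libraries 2.02, 2.08 and 2.72% at chromosome 8, 47190253 to 47190379, 25 CpGs. The first part of these bases had 0.835, 0 and 0% in the ELS-HFD libraries, against 2.32, 1.88, 1.76 and 8.33% in the HFD libraries. HFD libraries were thus the highest in both, with a difference of 2.85 percentage points (limma adjusted p = 0.158) over control and ELS-HFD minus HFD at -3.29 (limma adjusted p = 0.159), from the same HFD libraries. Without the HFD library at 8.33% ELS-HFD minus HFD was -1.71. A little further (chromosome 8, 47190575 to 47190623, 96247 bp from the start) the values were 0.321, 0.682, 0.260 and 0.194% in the ELS libraries, against 1.16, 3.56 and 6.99% in the control libraries (a difference of -3.54 percentage points (limma adjusted p = 0.100)), and without the control library at 6.99% the difference was -1.99.

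Of the metabotropic glutamate receptors, Grm5, a postsynaptic receptor that raises intracellular calcium through G proteins, was listed deep in intron 1 of 6 (chromosome 1, 151572084 to 151572178, 132722 bp from the start). ELS-HFD libraries had 1.24, 2.17 and 2.89%. HFD libraries had 4.96, 3.41, 5.04 and 5.01% and control libraries 5.54, 5.66 and 5.43%. The ELS-HFD libraries lay below every library of both groups. The difference from HFD was -2.50 (limma adjusted p = 0.176) and from control -3.44 (limma adjusted p = 0.134), and both use the same ELS-HFD libraries. Grm4, a presynaptic receptor added after its values were seen, had 66.4 ± 4.10% in ELS and 63.1 ± 1.08% in control in exon 11 of 13. In the intron of Ppil1 assigned to Grm4 the means were 94.7 ± 1.62% in ELS-HFD and 97.9 ± 1.37% in HFD at one stretch and 89.9 ± 0.771% in HFD and 92.9 ± 1.54% in control at another, where the groups did not overlap.

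GABA-A receptors are the chloride channels of fast inhibition. Gabrr1, a rho subunit known from retina and added after its values were seen, had 6.47, 6.70, 5.46 and 6.07% in the ELS libraries, against 3.46, 4.20 and 1.85% in the control libraries in intron 1 of 9 (chromosome 5, 48375152 to 48375220, 1090 bp from the start). The ELS libraries were tightly grouped above all control libraries (a difference of 3.01 percentage points (limma adjusted p = 0.145)).

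Nicotinic receptors are acetylcholine-gated cation channels. Chrna10, a subunit of the receptor on cochlear hair cells, had 1.95, 1.19 and 2.97% in the ELS-HFD libraries, against 5.76, 6.08, 4.26 and 5.83% in the ELS libraries in exon 4 of 5 (chromosome 1, 167208899 to 167209000, 1970 bp from the start). All ELS-HFD libraries lay below all ELS libraries, with means of 2.04 ± 0.895% in ELS-HFD and 5.48 ± 0.8294% in ELS (a difference of -3.44 percentage points (limma adjusted p = 0.104)). Over most of the same bases ELS minus control was 2.06, with overlap. Chrna6, a subunit of receptors on dopamine neurons, had 54.8, 41.5, 58.0 and 38.4% in the ELS libraries, against 63.0, 54.0 and 60.1% in the control libraries in its last intron (chromosome 16, 68879349 to 68879661, 19487 bp from the start). ELS libraries spread widely and overlapped control (difference -10.8, limma adjusted p = 0.242).

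Chrna2, a nicotinic subunit found in interneurons, was listed in 4 tables in exon 6 of 7 (chromosome 15, 42823073 to 42823123, 14201 bp from the start), and values of all 4 groups exist for the same bases. ELS-HFD libraries had 81.8, 58.7 and 81.4% and ELS libraries 80.3, 59.7, 78.4 and 65.5%. HFD libraries had 73.4, 92.9, 88.1 and 81.4% and control libraries 84.7, 81.6 and 70.6%. The ranges of all groups overlapped. ELS-HFD minus HFD was -9.98, ELS minus control -8.01, ELS-HFD minus control -4.99 and HFD minus control, over 3 more bases, 5.32. The lowest limma adjusted p was 0.304. The ELS-HFD library at 58.7% was the lowest of the 14, and without it ELS-HFD minus HFD was -2.34 and ELS-HFD minus control 2.65. ELS minus control lay between -12.2 and -4.26 with 1 library left out, and was -4.26 without the ELS library at 59.7%. HFD minus control lay between 1.33 and 8.63, and was 1.33 without the control library at 70.0%.

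Chrm1, the main excitatory muscarinic receptor of the forebrain, was listed at the end of its transcript (chromosome 1, 224884081 to 224884326, 1764 bp from the start). It had 22.2, 20.4 and 38.7% in the ELS-HFD libraries, against 22.5, 17.8 and 13.0% in the control libraries. The ELS-HFD library at 38.7% stood above all others, and without it the difference was 3.52 instead of 9.32 (limma adjusted p = 0.266). The nearly identical interval had 21.8, 22.2 and 39.6% in ELS-HFD, 19.1, 23.1, 17.5 and 17.7% in HFD and 27.8, 20.9, 19.7 and 25.6% in ELS. ELS-HFD minus HFD was 8.53, and 2.67 without the same library. ELS-HFD minus ELS was 4.35, and -1.51 without it. A separate intergenic stretch had 2.86 ± 2.45% in HFD and 0.126 ± 0.219% in control, without overlap (a difference of 2.74 percentage points (limma adjusted p = 0.166)).

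Serotonin receptors were represented by Htr1d, an inhibitory receptor on serotonergic and trigeminal nerve endings, and Htr3a, the ligand-gated channel subunit of the family. The intergenic Htr3a stretch (chromosome 8, 53228509 to 53228848, 21 CpGs, 4874 bp from the start) had 23.7, 29.0, 20.0 and 30.4% in the HFD libraries, against 18.3, 14.1 and 20.6% in the control libraries. HFD libraries were higher with 1 overlapping library, by 8.11 (limma adjusted p = 0.234), and between 6.33 and 10.03 with any library left out. In the ELS table ELS minus control was 2.72, and between 0.648 and 4.18 with 1 library left out. ELS-HFD minus ELS was -2.61. It was -7.42 without the ELS-HFD library at 30.9%, -0.289 without that at 16.6% and -0.134 without that at 16.3%. Htr1d was the nearest gene of 2 intergenic loci. The first (chromosome 5, 154770551 to 154770641, 29630 bp away) had 8.04, 7.98 and 6.19% in the ELS-HFD libraries, against 14.4, 19.8 and 6.58% in the control libraries. The control libraries spread widely, and the difference of -6.18 lay between -9.67 and -3.07 with 1 library left out, nearest to 0 without the control library at 19.8%. An interval of the same locus that overlaps its end (chromosome 5, 154770624 to 154771063, 29383 bp away) was listed in ELS-HFD against ELS in the other direction, at 6.50 ± 0.729% in ELS-HFD and 3.53 ± 2.51% in ELS (a difference of 2.97 percentage points (limma adjusted p = 0.213)). The farther locus, 52831 bp away, had 8.48 ± 1.71% in ELS-HFD and 11.6 ± 1.40% in control without overlap.

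Shank2 and Shank3 encode large scaffolds of the excitatory postsynapse, and human mutations in both are known from autism. Shank2 was listed at 2 alternative promoters, in an exon and in an intron. At the promoter of 1 transcript (chromosome 1, 217459088 to 217459146, 98 bp from the start) the values were 67.0, 55.2, 76.1 and 66.5% in the ELS libraries, against 87.8, 63.4 and 83.3% in the control libraries. This is a highly methylated promoter, and the groups overlapped (a difference of -12.0 percentage points (limma adjusted p = 0.225)). Without the control library at 87.8% the difference was -7.15, and without that at 63.4% it was -19.4. Nearly the same bases had 67.9, 59.1 and 90.2% in the ELS-HFD libraries, against 89.9, 65.5 and 85.1% in the control libraries, and an interval that runs into the exon had 62.8, 52.4 and 88.3% in the ELS-HFD libraries, against 57.9, 89.2, 83.4 and 74.2% in the HFD libraries. The difference from control was -7.77, and between -16.6 and -1.13 with 1 library left out, nearest to 0 without the ELS-HFD library at 59.1%. The difference from HFD was -8.35, and between -18.6 and -0.624, nearest to 0 without the same library at 52.4%. At the other promoter (chromosome 1, 217345172 to 217345439, 151 bp from the start) ELS-HFD minus HFD was -7.52, and 1.12 without the HFD library at 75.5%, while HFD minus control was 2.13 in an interval that overlaps its end and lay between -3.53 and 6.77 with 1 library left out. Exon 1 behind the first promoter had 86.8 ± 1.44% in ELS and 89.6 ± 3.87% in control, a difference between -5.00 and -1.46.

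Intron 6 of 11 of a Shank2 transcript (chromosome 1, 217489400 to 217489509, 30133 bp from the start) had 50.9, 52.2 and 67.3% in the ELS-HFD libraries, against 42.1, 48.7 and 47.3% in the control libraries. All ELS-HFD libraries lay above all control libraries, by 10.8 (limma adjusted p = 0.260), and without the library at 67.3% by 5.52. Shank3 was listed at 3 loci in the body of the gene. Exon 21 of 26 (chromosome 7, 130522408 to 130522603, 9930 bp from the start) had 14.6, 18.9, 24.7 and 20.7% in the HFD libraries, against 11.4, 14.8 and 10.1% in the control libraries. HFD libraries lay higher with 1 overlapping value, with a difference of 7.61 percentage points (limma adjusted p = 0.213). At the same bases ELS-HFD minus HFD was -4.37, and -2.05 without the HFD library at 27.7%. The values deposited for the HFD libraries at these coordinates differed between the 2 comparisons, and in HFD against control none exceeded 24.7%. The other stretches, in exon 19 of 26 and in an intron, were mostly methylated: ELS-HFD had 81.2 ± 8.49% and 75.4 ± 8.30%, and control 75.7 ± 6.36% and 69.2 ± 7.47%. These regions lay 14739 and 1994 bp from the start, and with 1 library left out the differences lay between 2.17 and 10.3 and between 2.19 and 10.9. Over a longer interval of the exon 19 stretch ELS-HFD minus HFD was 2.61, and between -0.374 and 7.85 with 1 library left out. In an interval overlapping the intron stretch ELS minus control was 4.80, and between -0.328 and 9.21. Both thus turned direction. Shank1, added after its values were seen, was near 0 in all but 2 control libraries of intron 1, with 0, 0.526, 0.588 and 0.833% in the HFD libraries, against 0.208, 3.5 and 6.09% in the control libraries and 0.615, 0.568, 1.57 and 0.682% in the ELS libraries, against 0.139, 4.96 and 5.01% in the control libraries. Without the control library at 6.09% HFD minus control was -1.37.

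Dlgap4 links Shank proteins to the membrane-associated guanylate kinases. Exon 2 of 12 (chromosome 3, 152790704 to 152790762, 38642 bp from the start) was highly methylated, and values of all 4 groups exist for the same bases. ELS-HFD libraries had 90.6, 84.7 and 93.2% and ELS libraries 88.1, 84.5, 84.8 and 86.3%. HFD libraries had 79.1, 83.4, 82.5 and 91.0% and control libraries 89.6, 84.2 and 90.3%. All groups overlapped. HFD minus control was -4.03, ELS-HFD minus HFD 5.47 and ELS-HFD minus ELS 3.55, with limma adjusted p of 0.415, 0.303 and 0.315. Without the HFD library at 79.1% HFD minus control was -2.39. Without the ELS-HFD library at 93.2% ELS-HFD minus HFD was 3.61 and ELS-HFD minus ELS 1.69. A neighbouring stretch of the exon had 61.4 ± 9.44% in ELS-HFD and 55.9 ± 4.96% in ELS, and the difference was 1.02 without the ELS-HFD library at 70.5%. Intron 2 of 11 was nearly unmethylated (chromosome 3, 152793860 to 152794001, 41839 bp from the start), with 2.72, 1.84 and 1.82% in the ELS-HFD libraries, against 3.65, 3.56, 5.88 and 4.86% in the ELS libraries, and did not overlap (a difference of -2.36 percentage points (limma adjusted p = 0.136)).

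Whether separation went with a different shift on each diet was tested by the interaction in a limma fit over 499 regions with values of all 14 libraries. The fit over 499 regions held 7 member regions, at Chrna2, Kcnf1, Dlgap4, Kcnk10, Hcn2, Kcnj4 and Cacna1i. None passed at an adjusted p of 0.05 and none at an unadjusted limma p under 0.05, beside 0 and 63 of all 499. The lowest was Dlgap4, where the group means were 89.5% in ELS-HFD, 84.0% in HFD, 85.9% in ELS and 88.0% in control, an interaction of 7.58 percentage points (limma adjusted p = 0.496). For Kcnk10, whose libraries spread widely, it was -15.1 percentage points. There the HFD and control values came from a shorter interval than the ELS-HFD and ELS values. Kcng1 and Grin3b had no region with all 4 groups in this fit.

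Other genes of synapses and ion transport were listed as well. Of 55 synaptic scaffold, release and transporter genes outside the rule, 16 had 31 listed regions, 11 higher and 20 lower in the first-named group, 12 of them at an unadjusted limma p under 0.05 (26.1% of all 8555 listed regions were). Of 43 genes of other channels, 11 had 21 regions, 10 higher and 11 lower, with 3 at an unadjusted limma p under 0.05. Of 19 channel genes known from sperm, such as those of the calcium channel of the sperm tail, 3 had 8 regions, 3 higher and 5 lower, and none had an unadjusted limma p under 0.05. In none of the 3 lists did a region pass limma after adjustment, and the authors' deposited table gave none a q-value under 0.05.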

How the data were processed

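The deposited tables, 1 for each of 5 comparisons of 14 sperm libraries, have columns as written by metilene, a caller of differentially methylated regions, per the file headers. Each gives the methylation level of a region in percent per library, as deposited by the authors, without read counts. The deposited p-values and q-values are the caller's own, and 149 of the 150 members have a q-value of 1. The deposited difference, a score in percentage points of the first group minus the second, was turned where needed so that positive means higher in the first-named group here. Reads had been trimmed and aligned to Rnor_6.0 with tools that include Trim Galore, Bismark and Bowtie, per the submitters' processing notes. Versions, caller settings and coverage filters are not given in the sources used here. The design text speaks of amygdala RNA, whereas the labels and tables are of sperm bisulfite libraries, which were followed.

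Columns are headed by codes of 2 letters with no replicate number. From these letters and from how many columns each code has, they were taken to be the ELS-HFD, ELS, HFD and control libraries. At member regions listed with identical coordinates in several tables, 57 of 70 pairs of values lay within 0.01 percentage points of each other in the same column and 0 of 156 across columns. The other pairs of the same column differed by more, as at Kcnf1, Shank3 and Kcne2. Differences from separate tables can thus rest on unequal values for the same libraries. Means and SDs were computed from library columns. Among members these gave differences up to 2.97 percentage points from the deposited ones, with the same sign.

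limma 3.58.1 in R 4.3.3 was fitted on log2((percent + 1) / (100 - percent + 1)) of all listed regions of each comparison, with Benjamini-Hochberg adjustment, and for the interaction on 499 regions overlapping by at least 50% between tables. The script was tested on simulated data. Alternatives were the percent scale, an offset of 5, regions with a mean of 5 to 95%, regions of at least 15 CpGs, within 10 kb of the start or with a difference of at least 5 percentage points, a q-value under 0.01, medians, and each library left out.

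The members and gene lists were chosen with earlier results of these data known. Genes named by rule are, per comparison, members with a q-value under 0.05 and the 5 largest increases and decreases, loci listed in at least 3 tables, the largest difference of each family, and promoter regions with a difference of at least 5 percentage points. A further 3 member genes that it takes are not reported individually here, though counts over members include them. Without these, the rule takes 70 regions at 28 genes, and other genes are said to have been added. RefSeq promoter windows are of assembly GRCr8.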

Additional observations from a re-analysis of the deposited data

Results flagged for a closer look

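Among 52 groups of 4 libraries at named member regions, 1 had a library far from the others, and chance alone flags about 1 in 20 such groups. At the Cacng1 region in the last Helz exon (chromosome 10, 95906551 to 95906707) 1 ELS library had 21.5%, against 34.3, 34.6 and 34.7% in the other ELS libraries. Groups of 3 libraries were not tested this way, so the control library at 86.5% near Kcne2 is not covered. The interaction test held 7 of the 150 member regions, and none of these passed it.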

How the results depend on the processing

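No member region passed limma at an adjusted p of 0.05 under any alternative that was run. Depth is unknown, and each group has only 3 or 4 libraries. No paired analysis was possible because the table columns carry no replicate numbers, so the fit with a replicate block was not run.

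The count of member regions at an unadjusted limma p under 0.05 depended on the scale. For HFD against control (11 of 33, beside 22.8% of all listed) it was 3 on the percent scale (9.09%, beside 11% of all) and 2 for means of 5 to 95% (9.52%, beside 11.1%). For ELS against control (10 of 38) it was 6 (15.8%, beside 16.4%) and 4 (15.4%, beside 20.4%), and for ELS-HFD against control (8 of 29) 2 (6.9%, beside 16.4%) and 1 (4.76%, beside 16.8%). For ELS-HFD against HFD (8 of 23) it was 2 (8.7%, beside 13.1%) and 1 (6.67%, beside 14.1%), with 4 at an offset of 5 (17.4%, beside 17.8%), and for ELS-HFD against ELS (8 of 27) 5 (18.5%, beside 13.8%) and 4 (23.5%, beside 13%). With each library left out these counts were 7 to 10 for HFD, 6 to 9 for ELS and 6 to 10 for ELS-HFD against control, 4 to 8 for ELS-HFD against HFD and 4 to 8 for ELS-HFD against ELS. The member called by q-value in ELS-HFD against ELS, near Grin3b, was lost at a q-value under 0.01 (0 left) and at a difference of at least 5 percentage points (0 left).

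The median difference over members took values with each library left out of 2.02 to 3.34 for HFD, -2.66 to -0.665 for ELS and -3.01 to 0.206 for ELS-HFD against control. For ELS-HFD against HFD it was -3.71 to -2.58. For ELS-HFD against ELS (2.97) it was -2.31 to 3.06, and -3.39 within 10 kb of the start. In 15 of the 70 named regions the direction turned with 1 library left out. Near Kcne2 the range was -23.1 to 9.67 for HFD, -22.0 to 10.8 for ELS and -21.1 to 11.6 for ELS-HFD against control, and the differences of medians were 9.73, 7.12 and 9.44. In HFD against control it was -6.54 to 3.32 for Grik3, -0.128 to 7.57 for Kcnf1 and -0.732 to 11.9 for Hcn2. In ELS-HFD against control it was -9.18 to 2.65 for Chrna2, -0.185 to 11.8 for Kcnk10 and -1.12 to 9.29 for Hcn2 (median difference -4.84). In ELS-HFD against HFD it was -15.7 to 1.12 for Shank2, and -17.0 to 0.0417 and -13.4 to 0.493 for the Hcn2 regions. In ELS-HFD against ELS it was -1.51 to 7.37 for Chrm1 (median difference -1.10), -8.07 to 3.62 for Kcnk10 (median difference 2.76) and -4.98 to 11.5 for Hcn2 (median difference -0.664). The cause was not tested.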
